A study of Mus musculus with 25 samples.

Results

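The genes described here are those of the cytosolic ribosomal proteins, chosen by symbol: Rpl or Rps followed by a number and at most an a, x or l suffix, or Rplp0, Rplp1, Rplp2 and Rpsa. The symbols picked 83 of the 55450 genes in the count table, 51 of the large ribosomal subunit and 32 of the small. Of these, 80 are annotated as protein-coding and 3 (Rps4l, Rpl6l and Rpl32l) as processed pseudogenes. Keeping protein-coding genes only and then those that passed the low-count filter left 79 of the 83, with 48 of the large subunit and 31 of the small. The 4 left out were the 3 pseudogenes, removed because they are not protein-coding, and Rpl10l, which had 0 counts in every tumour. The pseudogenes held 1711, 548 and 18 counts over all tumours.

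The tumours were 25 melanomas grown in C57BL/6 mice from a single mouse melanoma line, B2905 (also called M4), and measured by bulk RNA sequencing. The 8 responders, 6 stable tumours and 6 non-responders had all been given anti-CTLA-4, an antibody to an inhibitory receptor of T cells, at 10 mg/kg. They were told apart afterwards by whether the tumour shrank, kept its size or grew in the 10 to 11 days after the last dose. The 5 controls had been given an isotype IgG2b antibody at 10 mg/kg, and their tumours carry no outcome label. Each library came from a mouse with its own number, so the replicates are separate animals carrying the same line; the outcome groups were not randomised.

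A ribosome is built from ribosomal RNA and ribosomal proteins: the small subunit, with the Rps proteins, reads the messenger RNA, and the large subunit, with the Rpl proteins, joins amino acids. The proteins are needed in equal numbers, with the exception of the stalk proteins Rplp1 and Rplp2, and their genes are usually expressed together and strongly in growing cells. Their messenger RNAs open with a terminal oligopyrimidine (TOP) tract, a C followed by a run of C and T bases at the transcription start. Through this tract the kinase mTOR and the RNA-binding protein Larp1 control how much of the RNA is kept and translated, and the transcription factor Myc raises transcription of the same genes.

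Sequences around the RefSeq start site (GRCm38.p6) are shown for 8 genes on which the results turn, because the TOP tract is a known feature of the family's messenger RNAs. Each window runs 5′ to 3′ on the gene's strand, from 10 bases before the start to 20 from it, and capitals mark a C within 5 bases of the start that opens an unbroken run of at least 5 C or T bases. Runs that begin elsewhere in the window are left in lower case.
Rpl13a: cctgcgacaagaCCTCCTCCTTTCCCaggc
Rps6: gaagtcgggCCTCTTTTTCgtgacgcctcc
Rps26: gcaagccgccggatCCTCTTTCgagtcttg
Rpl31: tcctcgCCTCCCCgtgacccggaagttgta
Rps24: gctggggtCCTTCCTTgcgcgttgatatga
Rplp2: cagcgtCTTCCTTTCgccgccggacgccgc
Rps27l: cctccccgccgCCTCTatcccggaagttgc
Rplp0: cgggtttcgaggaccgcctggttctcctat
The windows lie at chr7:45128726-45128755 (minus strand) for Rpl13a, chr4:86857348-86857377 (minus) for Rps6, chr10:128626487-128626516 (minus) for Rps26 and chr1:39367841-39367870 (plus) for Rpl31. Those of Rps24, Rplp2, Rps27l and Rplp0 lie on the plus strand at chr14:24490668-24490697, chr7:141447641-141447670, chr9:66946076-66946105 and chr5:115559457-115559486. Rps24 and Rps27l each have a further start, not shown, with no run beginning within 5 bases of it. Of the 83 genes, 61 had a start in the table of promoters. A run anywhere in the window was on the gene's strand in 42 of them (68.9%), against 39.6% of the 27025 genes in that table, and on the opposite strand in 26.2% against 44.5%. A run beginning within 5 bases of the start was present in 29 of 61 (47.5%), against 21.2% of all genes. In both counts a gene with several starts is included if any of its windows holds the run. Rplp0 has no run beginning within 5 bases of its start, but one farther into its window, and is among the 42. A match of letters is a description of the window and not a test of a site.

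Total counts ranged from 8.76 to 34.3 M per tumour. Protein-coding genes held 63.9% ± 18.8 (SD, n = 8) of the counts in responders, where stable tumours had 86.2% ± 1.86 (n = 6), non-responders 86.1% ± 1.97 (n = 6) and controls 87.4% ± 0.842 (n = 5). The lowest responder stood at 23.8% and the highest, responder 5, at 87.0%. The abundant small RNA 7SL averaged 17.7% of a responder library and 4.23% to 4.77% in the other groups. Mitochondrial ribosomal RNA took 5.42% in responders, 2.87% in stable tumours, 0.930% in non-responders and 0.845% in controls. All levels below are therefore per protein-coding count. The labels number the libraries group by group, so an effect of processing order and of group cannot be told apart.

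Ribosomal protein genes took a smaller share of the protein-coding counts in responders than in any other group. The share was 2.34% ± 0.609 (SD, n = 8) in responders, 3.24% ± 0.353 (n = 6) in stable tumours, 3.75% ± 0.842 (n = 6) in non-responders and 3.84% ± 0.322 (n = 5) in controls. Responders 1 to 8 held 1.93%, 2.45%, 2.48%, 2.17%, 3.74%, 2.08%, 1.85% and 2.01%. Stable tumours ran from 2.66% through a median of 3.25% to 3.70%, and non-responders from 3.01% through 3.40% to 5.05%. The controls held 4.29%, 3.39%, 3.79%, 3.91% and 3.82%. The 7 responders other than responder 5 lay between 1.85% and 2.48%, all below every tumour of the other groups, while responder 5 lay among them. The stable, non-responder and control ranges overlapped. In these bulk samples, fewer cells rich in ribosomal protein RNA and less of that RNA per cell cannot be told apart.

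**Figure D1:**
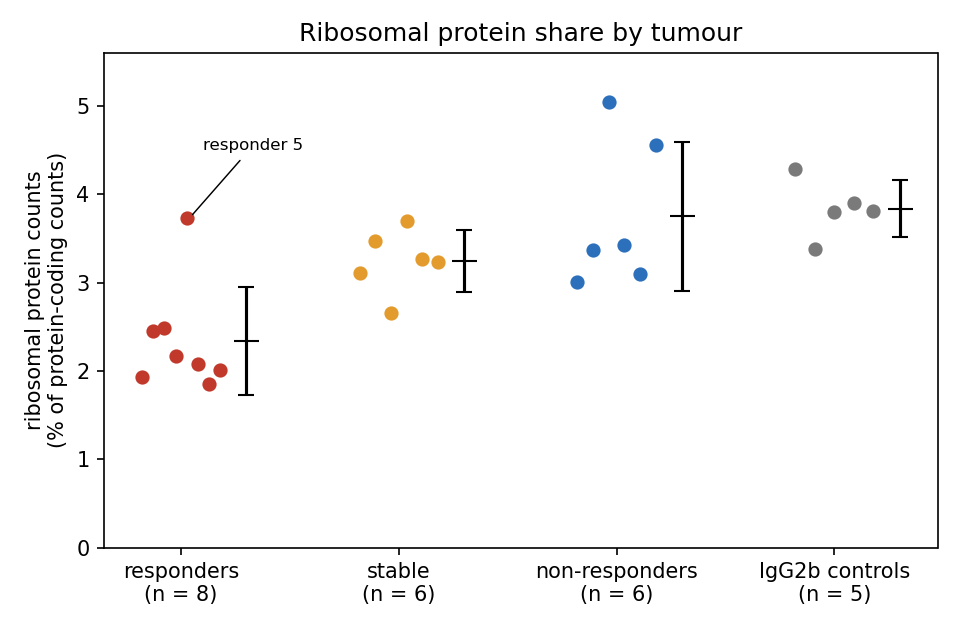
Share of protein-coding counts held by ribosomal protein genes (y axis, percent) in each tumour, by group (x axis); points are tumours and the bars give the mean and SD. The 7 responders other than responder 5 sit between 1.85% and 2.48%, below all 17 tumours of the other groups.

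The same 7 responders were also the 7 tumours with the lowest protein-coding share of all counts. In the order above, the responders' protein-coding shares were 23.8%, 72.7%, 74.3%, 54.2%, 87.0%, 70.3%, 62.0% and 67.3%. Responder 5 was thus the responder nearest to the other groups in both measures. Among the other 7, the order of the shares was not the same: responder 1, at 23.8% protein-coding, held 1.93% ribosomal protein counts, and responder 7, at 62.0%, held 1.85%. Taken of all counts and not of protein-coding counts, the ribosomal protein share was 1.56% ± 0.808 in responders, 2.79% ± 0.275 in stable tumours, 3.23% ± 0.755 in non-responders and 3.36% ± 0.303 in controls.

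**Figure D2:**
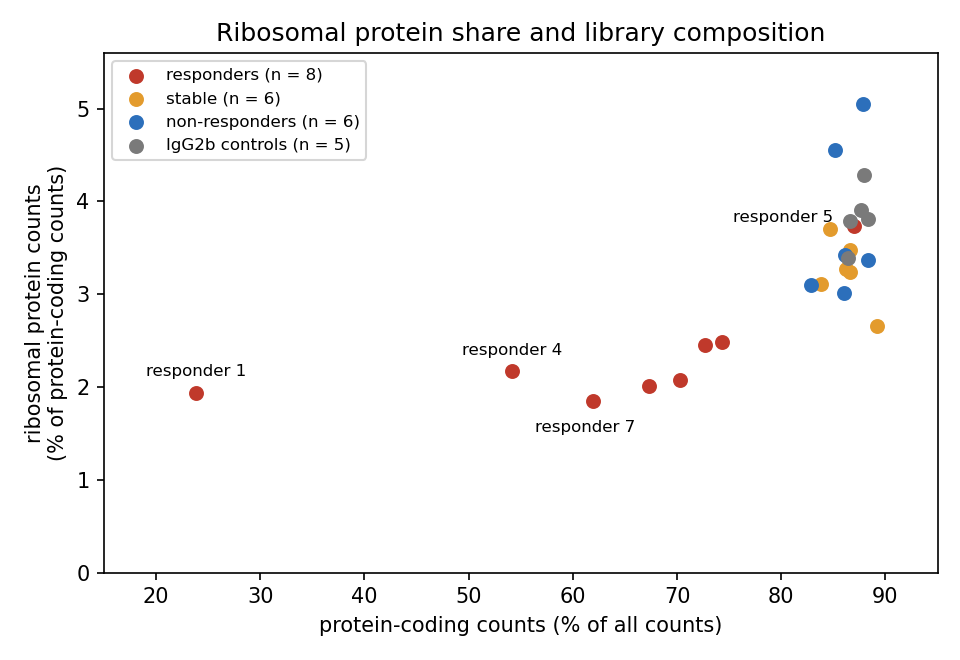
Ribosomal protein share of protein-coding counts (y axis, percent) against the protein-coding share of all counts (x axis, percent); each point is a tumour, coloured by group. Responder 5 lies at 87.0% and 3.74% among the other groups, and responders 1, 4 and 7 lie farthest to the left, at 23.8%, 54.2% and 62.0%.

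Responders against non-responders, the comparison the study's title names, gave lower levels for nearly the whole family. Of 79 genes tested, 73 fell (adjusted p under 0.05 in edgeR's quasi-likelihood test) and 0 rose, where 25.7% of the 14881 protein-coding genes tested were called lower. All 79 fold changes were below 0, with a median log2 fold change of -0.77, against -0.01 over all genes tested. The large subunit gave 45 of 48 lower (median -0.80) and the small subunit 28 of 31 (median -0.72). Ranges of the 2 groups overlapped for all but Rpl41, where 3.11% of all genes tested were lower without overlap. Without responder 5, 59 of the 79 were lower without overlap, against 9.02% of all genes tested, and 76 were called lower, where 29.8% of all genes tested were. Responder 5 had the highest share of this family among the responders. Leaving it out, here and below, therefore favours a lack of overlap and is no separate evidence.

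The largest fall among called genes was that of Rps26, a small-subunit protein beside the exit of the messenger RNA channel (GRCm38 chr10:128624534-128626747, minus strand). Its level was 69.4, 103 and 299 CPM (counts per M protein-coding counts) at the lowest, median and highest responder, and 213, 301 and 574 CPM in non-responders. Stable tumours held 174, 272 and 305 CPM, and the controls 415, 349, 401, 445 and 414 CPM. Responder 5 gave the highest responder value; the other 7 responders, at up to 171 CPM, lay below every tumour of the other groups. The log2 fold change between responders and non-responders was -1.32 ± 0.26 (SE), with an edgeR adjusted p of 0.000376.

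Next in size were Rps27l, Rpl36, Rpl31 and Rpl32. Rps27l, a paralog of Rps27 that p53 is known to induce (chr9:66946086-66949516, plus strand), held 12.4, 17.6 and 64.1 CPM in responders at the lowest, median and highest. It held 31.7, 51.3 and 83.4 CPM in non-responders, 32.2, 47.2 and 74.1 CPM in stable tumours, and 80.0, 69.8, 65.5, 71.1 and 73.3 CPM in the controls. Again only responder 5 and responder 2, at 35.8 CPM, reached the range of the non-responders; the log2 fold change was -1.18 ± 0.31 (SE; edgeR adjusted p = 0.00356). The large-subunit proteins Rpl36 (-1.15 ± 0.23), Rpl31 (-1.13 ± 0.28) and Rpl32 (-1.13 ± 0.22) fell by similar amounts on the log2 scale, and their edgeR adjusted p were 0.000479, 0.00218 and 0.000416. The smallest called falls were those of Rpl38 (-0.48), Rps27a (-0.46), which is made as a fusion with ubiquitin, Rpl22 (-0.46), Rps9 (-0.44) and Rpl5 (-0.43), a carrier of 5S ribosomal RNA. Called fold changes thus ran from -0.43 to -1.32 on the log2 scale. The call of Rpl38 did not hold on leaving out non-responder 3 or 6 or responder 1, 4, 7 or 8, and its fold change was 0.033 after trends with length and GC content were removed.

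**Figure D3:**
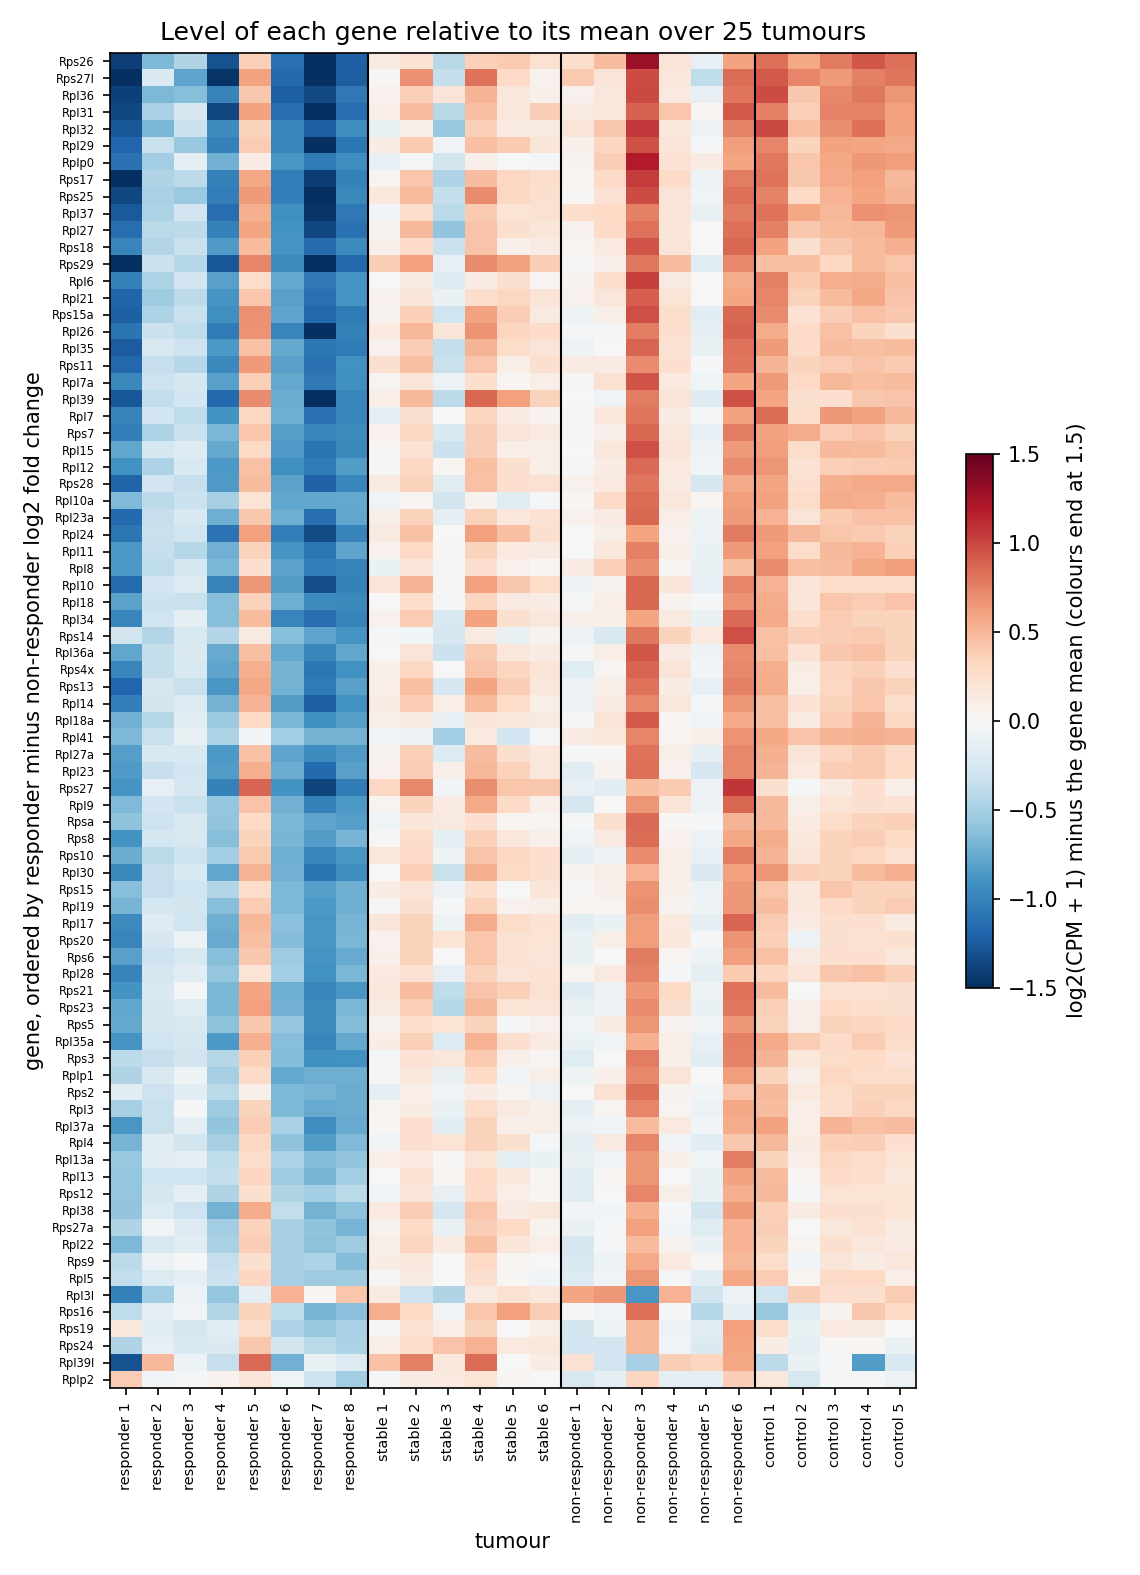
Level of each of the 79 genes (rows, ordered by fold change between responders and non-responders) in each of 25 tumours (columns, by group), as log2(CPM + 1) minus the gene's mean over the tumours; blue is lower and red higher. The responder columns other than responder 5 are blue for most rows, and responder 5 is like the columns of the other groups.

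The 3 stalk proteins, which recruit elongation factors to the large subunit, did not move alike. Rplp0, the stalk's base (chr5:115559467-115563727, plus strand), held 631, 786 and 1471 CPM in responders at the lowest, median and highest and 1416, 1677 and 3119 CPM in non-responders. In stable tumours it held 1128, 1349 and 1441 CPM, and in the controls 2374, 1826, 2045, 2150 and 2106 CPM. Every control lay above every stable tumour and every responder, and the log2 fold change between responders and non-responders was -1.07 ± 0.19 (SE; edgeR adjusted p = 0.000167).

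Rplp1 held 338, 415 and 704 CPM in the responders, 533, 589 and 708 CPM in stable tumours, 545, 631 and 951 CPM in non-responders and 613 to 728 CPM in controls. Its log2 fold change between responders and non-responders was -0.64 ± 0.16 (SE; edgeR adjusted p = 0.00212), and -0.072, not called, after trends with length and GC content were removed. Rplp2 (chr7:141447370-141451585, plus strand) held 216, 304 and 402 CPM in the responders, 304, 326 and 357 CPM in stable tumours, 262, 281 and 398 CPM in non-responders, and 349, 262, 305, 305 and 292 CPM in controls. The 4 ranges of Rplp2 overlapped, and its highest value came from responder 1, the tumour with the lowest protein-coding share. Its log2 fold changes lay between -0.10 and 0.12 in all 6 comparisons, and that between responders and non-responders was -0.04 ± 0.12 (SE; edgeR adjusted p = 0.777). Whether the 3 stalk genes differ from one another in fold change was not tested.

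Rpsa, the small-subunit protein also known as the laminin receptor, held 477, 559 and 1038 CPM in responders and 835, 926 and 1530 CPM in non-responders at the lowest, median and highest (log2 fold change -0.72 ± 0.16, edgeR adjusted p = 0.00108). Rps6, the substrate of the S6 kinases, held 306, 376 and 744 CPM against 527, 574 and 965 CPM (-0.67 ± 0.18, adjusted p = 0.00397 in edgeR). In both, responder 5 was the only responder inside the non-responders' range. Rps4x, on the X chromosome, and Rpl13a, which is also part of an inhibitor of translation in myeloid cells, changed by -0.79 ± 0.21 and -0.57 ± 0.15 (SE; edgeR adjusted p = 0.0045 and 0.00436). Rpl41, a peptide of the large subunit, had the highest level per length of the family (1055 in the authors' RPKM, mean over the tumours), followed by Rplp1 (673) and Rplp0 (582).

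Besides Rplp2, 5 genes tested did not pass the threshold between responders and non-responders: Rps16, Rps19, Rps24, Rpl3l and Rpl39l, named here because they make up the remainder. Their log2 fold changes were -0.34, -0.30, -0.29, -0.40 and -0.28, and their edgeR adjusted p were 0.131, 0.0885, 0.119, 0.416 and 0.627. Rpl3l and Rpl39l are paralogs known mainly from striated muscle and testis and were near the lower limit of detection. Rpl39l stood at 0, 1.23 and 3.48 CPM in responders at the lowest, median and highest, 1.48, 2.07 and 3.42 CPM in stable tumours, and 0.756, 1.99 and 2.70 CPM in non-responders. The controls held 0.880, 1.32, 1.44, 0.380 and 1.12 CPM, all below every stable tumour. The log2 fold change of Rpl39l between stable tumours and controls was 1.18 ± 0.52 (SE; edgeR adjusted p = 0.0669). Rpl3l stood at 0.296, 1.43 and 2.78 CPM in the responders, 0.928, 1.88 and 2.07 CPM in stable tumours, and 0.432, 2.12 and 3.13 CPM in non-responders, with 1.13, 2.39, 2.13, 2.11 and 2.43 CPM in the controls. The SEs of their fold changes between responders and non-responders were 0.40 for Rpl3l and 0.46 for Rpl39l, so a change of the family's median size (-0.77) would lie within 2 SE of 0. The pseudogene Rps4l was at 2.26 in the authors' RPKM, per length far below Rps27l at 48.6.

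Against stable tumours, 69 of 79 genes fell in responders, where 15.8% of all genes tested were called lower, and 0 rose. The median log2 fold change was -0.64, against -0.03 over all genes tested. The largest falls were those of Rps29 and Rps27l (-1.05 ± 0.28 and -1.04 ± 0.31, SE; edgeR adjusted p = 0.00931 and 0.0156), and the smallest called were those of Rpl10a (-0.39) and Rps9 (-0.36). Rps29, a zinc-binding small-subunit protein, held 92.9, 133 and 464 CPM at the lowest, median and highest responder, where stable tumours held 254, 391 and 455 CPM. In non-responders it held 244, 338 and 479 CPM, and in the controls 381, 381, 344, 387 and 371 CPM. The other 7 responders lay at or under 222 CPM, below every other tumour, and responder 5 lay above all stable tumours. No gene of the family was lower without overlap, where 0.188% of all genes tested were; without responder 5, 51 were, against 8.59%. Without stable 4 the number called was 44, and without responder 5 it was 76, where 24.3% of all genes tested were called lower.

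Against the controls, 72 of 79 genes fell in responders, where 32.4% of all genes tested were called lower. The median log2 fold change was -0.81, against 0.04 over all genes tested. Rps26 and Rps27l were again the lowest (-1.59 ± 0.27 and -1.52 ± 0.32, SE; edgeR adjusted p = 1.97e-05 and 0.000243), and Rps27a (-0.48) and Rps9 (-0.40) the least changed of those called. For 10 genes the ranges did not overlap, against 18.3% of all genes tested, and for 71 when responder 5 was left out, against 24.7%. These 3 comparisons share the responder libraries and are not independent of one another.

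Most of these calls were lost when each library's protein-coding share entered the model as a covariate. All responders but responder 5 had lower protein-coding shares than every other tumour. The parts of group and of library composition in the falls therefore cannot be told apart, and the loss of calls does not separate them. Between responders and non-responders 6 of 79 remained called lower, near the 5.75% of all genes tested, and the median log2 fold change was -0.41. The 6 genes were Rps26 (-0.83), Rps14 (-0.74), Rplp0 (-0.71), Rpl10a (-0.62), Rps2 (-0.60) and Rpl41 (-0.57), and all were among the 73. Between responders and stable tumours 0 of 79 were called and 0.00% of all genes tested were, in either direction. There 2 of the 79 had an unadjusted p under 0.05, DESeq2 and limma, run without the covariate, called 70 and 70, and the median log2 fold change with it was -0.29. Between responders and controls 29 were lower, where 22.4% of all genes tested were, and Rpl39l, near the lower limit of detection, was higher. Leaving out instead responders 1, 4 and 7, which have the lowest protein-coding shares, 38 of 79 were called lower than in non-responders, where 15.7% of all genes tested were (median -0.55). Against stable tumours that left 0 called (0.184% of all genes tested were called lower), with 50 at an unadjusted p under 0.05 and a median of -0.46.

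**Figure D4:**
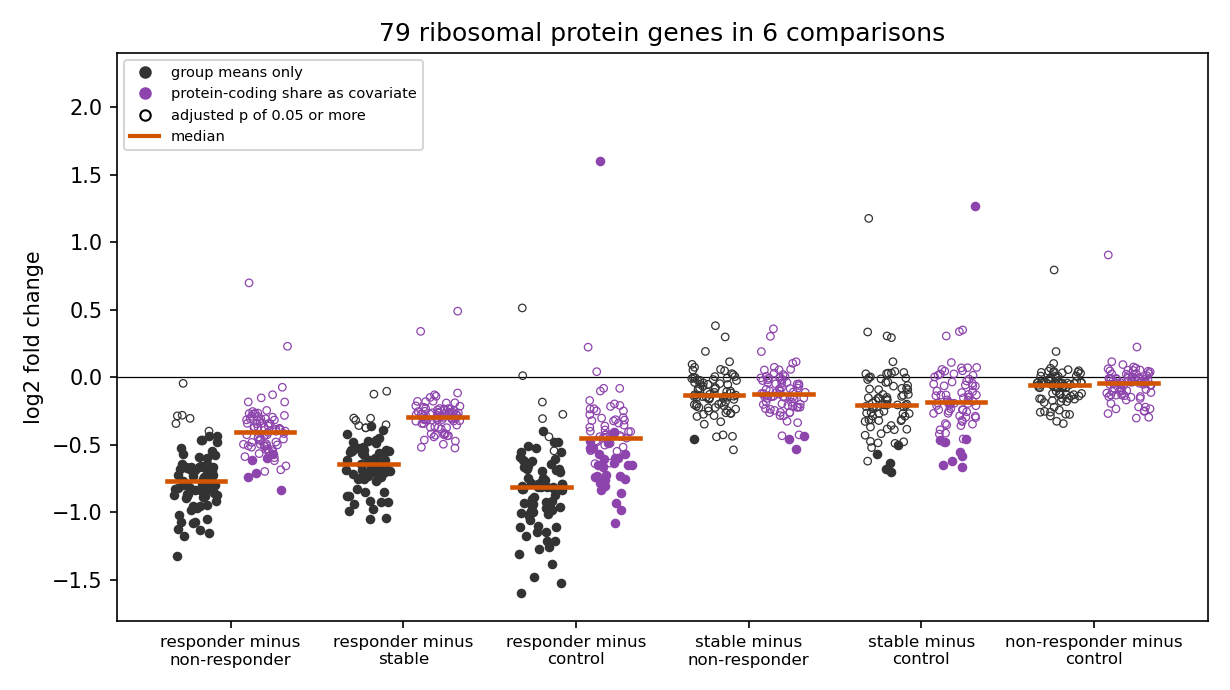
Log2 fold change (y axis) of each of 79 genes in 6 comparisons (x axis), in the fit with group means only (dark) and in that adjusted for each library's protein-coding share (purple); filled points are called and open points are not, and orange lines are medians. The medians of the 3 responder comparisons move from -0.77, -0.64 and -0.81 to -0.41, -0.29 and -0.45 with the covariate.

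The covariate itself went with the level of the family. Per 10 percentage points of protein-coding share, with the group means in the model, 49 of 79 genes were higher in edgeR's test, where 13.4% of all genes tested were, and 0 were lower. The median log2 slope was 0.18, against 0.02 over all genes tested. The steepest called slopes were those of Rpl39l (0.65), Rps27l (0.36) and Rps29 (0.33), and the flattest those of Rpl22 (0.14), Rpl8 (0.15) and Rpl11 (0.16). Rpl39l was near the lower limit of detection. Leaving out each tumour in turn, its slope ran from 0.43 to 0.72, with edgeR adjusted p up to 0.63. The count of 49 rested on responder 5: without it 0 were called in edgeR, with 14 at an unadjusted p under 0.05 and 3.58% of all genes called in either direction. Within the 8 responders alone 0 of 77 were called, with 49 at an unadjusted p under 0.05, while 1.61% of all genes were called in either direction; the median slope was 0.15. DESeq2 over all tumours called 41 slopes.

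Stable tumours and non-responders differed in 1 gene of the family, where 10.0% of all genes tested were called lower. That gene was Rpl41, with 433, 587 and 680 CPM in stable tumours at the lowest, median and highest and 635, 678 and 1024 CPM in non-responders. The ranges overlapped, and the log2 fold change was -0.45 ± 0.15 (SE; edgeR adjusted p = 0.0340). The count was 0 on leaving out any of controls 1, 2, 4 and 5, non-responders 3 and 6, or stable tumours 2, 3 and 5. It was 2 without non-responder 1, 4 or 5 and 3 without responder 5, where 21.2% of all genes tested were called in either direction. A fit of these 2 groups alone also called 1 gene, where 16.1% of all genes tested were called in either direction. That gene was not Rpl41 (-0.47, not called) but Rpl10a. A fit to every gene, not only protein-coding ones, called 0 in edgeR (4 at an unadjusted p under 0.05). Over the 79 genes the median was -0.13. Rplp0 had the lowest value, -0.54 ± 0.20 (SE), with an edgeR adjusted p of 0.0659.

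Stable tumours against controls gave 5 lower genes of 79, all of the large subunit, where 24.3% of all genes tested were called lower. They were Rpl32 (log2 fold change -0.70 ± 0.25), Rplp0 (-0.68 ± 0.21), Rpl41 (-0.63 ± 0.15), Rpl10a (-0.57 ± 0.16) and Rpl8 (-0.50 ± 0.19, all SE), with edgeR adjusted p of 0.0237, 0.0105, 0.00151, 0.00657 and 0.0316. The median over the family was -0.20. Groups did not overlap for 12 lower genes and 1 higher, against 21.8% and 18.9% of all genes tested. A fit on these 2 groups alone called 29 (26 lower and 3 higher), where 29.5% of all genes tested were lower and 27.6% higher. Without responder 5 the count was 12, where 50.1% of all genes tested were called in either direction. It was 3 without control 1, control 4 or stable 3.

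Non-responders and controls did not differ in any gene of the family by edgeR, where 5.11% of all genes tested were called lower and 11.2% higher. None had an unadjusted p under 0.05, and DESeq2 and limma also called 0. The median log2 fold change was -0.06, and the lowest was that of Rps27l (-0.34 ± 0.34, SE; edgeR adjusted p = 0.518). Non-responders 3 and 6 had the 2 highest shares of all 25 tumours, at 5.05% and 4.56%.

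The balance of the subunits differed among groups in a way the summed level does not show. Counts of large-subunit genes divided by those of small-subunit genes gave 1.69 ± 0.0174 (SD, n = 5) for the controls. The ratio was 1.60 ± 0.0426 (n = 6) for non-responders, 1.53 ± 0.00905 (n = 6) for stable tumours and 1.52 ± 0.0456 (n = 8) for responders. Controls ran from 1.67 to 1.71, non-responders from 1.55 to 1.66, stable tumours from 1.52 to 1.54 and responders from 1.44 to 1.59. The control, non-responder and stable ranges did not overlap, while responders spread across the stable range and into that of the non-responders. Leaving out the 5 large-subunit genes called between stable tumours and controls, the ratio was 1.36 for controls, 1.30 for non-responders, 1.29 for stable tumours and 1.26 for responders. The non-responder and stable ranges then overlapped (1.28 to 1.33 and 1.28 to 1.31), and the controls stayed above both (1.34 to 1.38). The 5 genes were picked for being lower in stable tumours than in controls. A smaller gap between stable tumours and controls was thus built in and does not show where the difference in ratio comes from. No test was made of this ratio, which is a sum over the chosen genes.

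**Figure D5:**
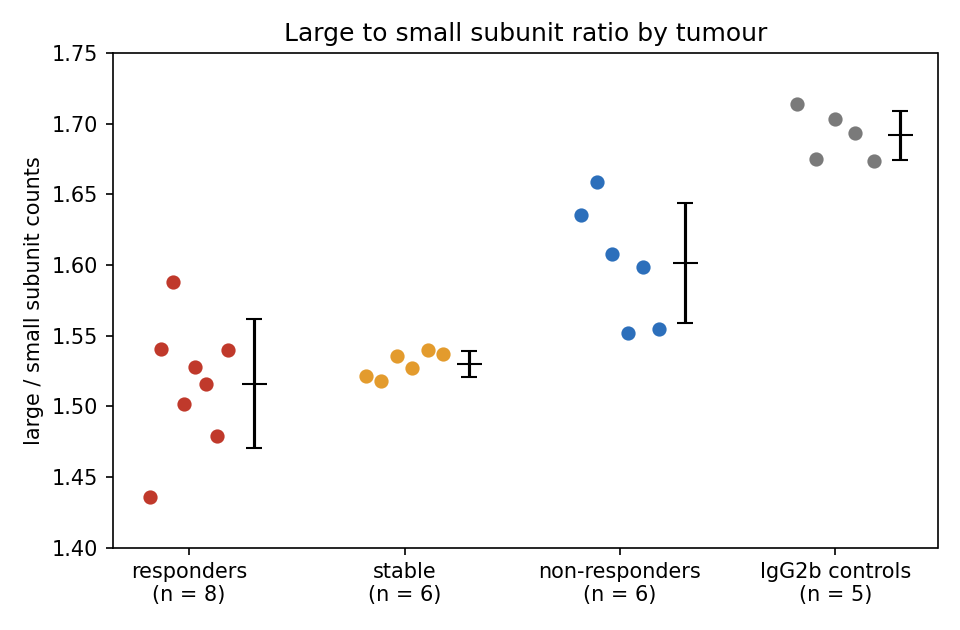
Ratio of large-subunit to small-subunit ribosomal protein counts (y axis, no unit, not starting at 0) in each tumour, by group (x axis); points are tumours and bars give the mean and SD. Controls lie at 1.67 to 1.71, above all other tumours, and stable tumours keep within 1.52 to 1.54.

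Fold changes between responders and non-responders were also read by features that the choice of genes did not use. Of 28 tested genes with a TOP run beginning within 5 bases of the start, such as Rps6 and Rps26, 26 were called lower (median -0.74), where 25.7% of all genes tested were. That share also applies to the other counts of fallen genes given next. Of 31 without it, among them Rplp0, 27 were (median -0.76), and of 20 with no promoter in the table all 20 (median -0.81). The 29 genes that hold a small nucleolar RNA gene within them gave 27 called (median -0.72), and the other 50 gave 46 (median -0.80). Genes with an exonic length up to the family's median of 1770 bases gave 37 of 40 (median -0.79), and longer ones 36 of 39 (median -0.72). For the slope on protein-coding share these 2 length classes gave 30 of 40 and 19 of 39 higher, where 13.4% of all genes tested were. Across the 79 genes, log2 exonic length and fold change had a Pearson r of 0.21 and a Spearman rho of 0.19; genes of the same libraries are not independent replicates. All genes tested had a median exonic length of 4344 bases. After each library's trends of level with length and GC content were removed, 60 of 79 were called lower, where 24.8% of all genes tested were.

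Other genes of the pathway were read from fixed lists of related function. Among 28 tested genes for elongation factors and other TOP messenger RNAs, 23 fell and 1 rose between responders and non-responders (median -0.52), where 25.7% of all genes tested were called lower and 22.2% higher. The same shares stand beside each count of this comparison in the lists that follow. Among those that fell was Naca, which binds emerging chains (-0.84); the highest of those called were Eif4a2, an initiation helicase (0.37), and Tpt1 (-0.35). Ribosomal protein genes whose symbols fall outside the rule gave 6 lower of 8 tested and 0 higher (median -0.73), among them Rack1 (-0.79), a scaffold on the small subunit, with Rps3a1 (-0.44) and Rpl7l1 (-0.73) the least changed of those called. Mitochondrial ribosomal proteins, which serve translation inside mitochondria, gave 62 lower and 2 higher of 78 (median -0.52), from Mrpl42 (-1.17) and Mrps36 (-1.03) to Mrpl24 (0.21) and Mrps10 (0.39).

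Ribosome biogenesis factors gave 28 lower and 1 higher of 46 between responders and non-responders (median -0.39), where 25.7% and 22.2% of all genes tested were. The lowest called were Nop10 (-0.93) and Nhp2 (-0.91), both of the box H/ACA particles that modify ribosomal RNA, and the highest Rrp1b (0.24) and Wdr12 (-0.24). Of 14 upstream regulators 4 fell and 3 rose (median 0.12), near the shares over all genes tested (25.7% and 22.2%). Myc (-0.80) and the cap-binding protein Eif4e (-0.49) were the lowest, and Rps6kb2, an S6 kinase (0.94), and Rptor, the mTOR complex subunit raptor (0.52), the highest. Between stable tumours and non-responders, 11 of 46 biogenesis factors, 2 of 78 mitochondrial ribosomal proteins and 1 of 28 TOP genes were called lower, and 0 genes of these lists were called higher, where 10.0% of all genes tested were lower and 8.18% higher. Between responders and stable tumours the counts lower were 10, 39 and 18, with 4, 1 and 0 higher, where 15.8% of all genes tested were lower and 15.2% higher. On the protein-coding share, 3 biogenesis factors had a positive and 4 a negative called slope, against 32 and 0 mitochondrial ribosomal proteins and 10 and 0 TOP genes, where 13.4% and 6.73% of all genes tested had such slopes.

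Marker genes of the tumour's cells also moved with the groups. The 7 melanocytic markers, all tested, summed to 391 to 966 CPM in responders, 291 to 648 CPM in stable tumours, 928 to 17435 CPM in non-responders and 13902 to 21522 CPM in controls; 2 of them were at 0 in at least 1 responder. Between responders and non-responders all 7 were called lower, where 25.7% of all genes tested were. The 7 proliferation markers summed to 359 to 698 CPM in responders, 475 to 850 CPM in stable tumours, 856 to 1919 CPM in non-responders and 1336 to 1774 CPM in controls, with none at 0, and again all 7 were called lower in responders than in non-responders (25.7% of all genes tested). The part of melanoma cell content or proliferation in the lower ribosomal protein levels was not tested. In stable tumours all 7 melanocytic and 6 of 7 proliferation markers were called lower than in non-responders, where 1 of 79 ribosomal protein genes and 10.0% of all genes tested were.

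Among the immune markers, Ptprc, on all leukocytes, held 386 to 708 CPM in responders, 481 to 804 CPM in stable tumours, 106 to 572 CPM in non-responders and 58.4 to 124 CPM in controls. The 6 T cell markers tested of 7 summed to 99.7 to 271 CPM, 152 to 240 CPM, 24.1 to 207 CPM and 9.65 to 28.8 CPM in the same order, and the 6 macrophage markers to 1099 to 3228 CPM, 2307 to 3621 CPM, 802 to 2543 CPM and 588 to 1052 CPM. None of these was at 0 in any tumour. Responder 5, whose ribosomal protein share lay among the other groups, had the highest sum of T cell and of macrophage markers among the responders (271 and 3228 CPM) and the lowest of melanocytic markers (391 CPM). In the order responders, stable tumours, non-responders and controls, the summed medians were 10990, 15319, 13332 and 6247 CPM for 6 fibroblast markers, and 88.0, 130, 203 and 185 CPM for 4 endothelial markers. They were 45.1, 42.9, 18.3 and 5.76 CPM for 4 neutrophil markers and 55.1, 78.9, 27.7 and 3.29 CPM for 5 B and plasma cell markers. Skeletal muscle markers (6) gave 440, 812, 1046 and 620 CPM and keratinocyte markers (4) 189, 43.3, 35.9 and 42.3 CPM. In at least 1 responder, 2 neutrophil, 3 B and plasma cell and 3 keratinocyte markers were at 0. For stable tumours these numbers were 0, 0 and 1, for non-responders 2, 1 and 1, and for controls 1, 3 and 1. Sums over the responders ran from 5.62 to 118 CPM for B and plasma cell markers and from 0.638 to 1639 CPM for keratinocyte markers. The part of these cells in the ribosomal protein levels was not tested.

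Reads from this family are hard to assign, because its genes have many near-identical processed copies. In the deposited table, 88.1% of values of the 80 protein-coding genes of the family were not whole, against 11.2% of values of all protein-coding genes tested. The counting program named in the submitters' processing notes, RSEM, gives such values where reads match several genes and are shared out by estimation. Rows with a symbol of the family followed by -ps numbered 299. Copies under any other name, and the pseudogenes Rps4l, Rpl6l and Rpl32l, are not among them. Those 299 rows held from 0.209% to 0.499% as many counts as the genes themselves. The averages were 0.416% for responders, 0.373% for stable tumours, 0.242% for non-responders and 0.242% for controls. These are the counts assigned to such rows and not a measure of misassigned reads; levels of single genes with close copies are uncertain by an amount that was not measured.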

How the data were processed

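The authors deposited a table of expected counts per gene for 55450 genes and 25 tumours, and a table of RPKM values. The submitters' processing notes name bcl2fastq 2.17, Trimmomatic, STAR 2.5.1, RSEM 1.2.22 and the mm10 build. The lengths and denominator of the RPKM values were not stated in any source used here. The labels name a stranded total RNA kit but give the molecule as polyA RNA. All 55450 identifiers matched GENCODE M21 (GRCm38), whose coordinates and exon unions were used.

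Expected counts, where whole counts had been planned for, were rounded. Depth was 3.15 to 30.1 M protein-coding counts per tumour. Only protein-coding genes entered the tests (filterByExpr by group, 14881 genes), with TMM scaling, and CPM uses these scaled totals. The robust quasi-likelihood test of edgeR 4.0.16 (R 4.3.3) was fitted to 4 group means over all 25 tumours for 6 two-sided contrasts, with Benjamini-Hochberg adjustment over all genes tested, and separately to a slope on the protein-coding share. Called means an adjusted p under 0.05. Each SE was derived from the fold change and its F statistic. The fit was tested on simulated data. Alternatives used DESeq2 1.42.0 and limma 3.58.1, the latter on log2(RPKM + 1) and log2(RPKM + 0.1).

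The genes, lists and naming rule were chosen with earlier results of these data known. Named were the 5 highest and 5 lowest called fold changes between responders and non-responders and the 2 highest and lowest of each other comparison (mean of at least 1 CPM), the 3 extreme slopes each way, the stalk genes, Rpsa, Rps6, Rps4x, Rpl13a, all paralogs with suffix l, and the 3 highest levels per length. From each related list the 2 highest and 2 lowest called were named, except for an item that is not reported here.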

Additional observations from a re-analysis of the deposited data

Results flagged for a closer look

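Of 108 checks of a group for a tumour standing apart from the rest by Dixon's criterion, 18 were met; chance alone meets it in about 1 group in 20. Responder 5 accounted for 16 of them, each time as the highest responder. Its ribosomal protein share was 3.74% of protein-coding counts, next to 2.48% in the nearest responder. Among small-subunit genes it held 299 CPM for Rps26 (nearest 171), 64.1 CPM for Rps27l (nearest 35.8), 464 CPM for Rps29 (nearest 222), 961 CPM for Rps4x, 744 CPM for Rps6 and 1038 CPM for Rpsa. Among large-subunit genes it held 349 CPM for Rpl10a, 372 CPM for Rpl11, 788 CPM for Rpl13a, 216 CPM for Rpl22, 485 CPM for Rpl31, 594 CPM for Rpl32, 166 CPM for Rpl36, 251 CPM for Rpl38 and 857 CPM for Rpl5. These values come from the same library and count as 1 observation of that tumour. Stable 3 stood low for Rps26, at 174 CPM where the nearest stable tumour held 257 CPM. Control 1 stood low for Rpl3l, at 1.13 CPM where the nearest control held 2.11 CPM.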

How the results depend on the processing

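No paired analysis was possible because the replicate numbers follow record order and pair no tumours. The library number runs with the group, all tumours come from 1 cell line, and the bulk depth (3.15 M protein-coding counts at the lowest) limits the paralogs near 1 CPM. Of the counts and shares under other settings of the analysis, 72 stayed within 1.5 times or 1 SD of the reported value and 29 did not. The cause was not tested. Adjusted for each library's protein-coding share, the calls were 6 between responders and non-responders, 0 between responders and stable tumours, 3 between stable tumours and non-responders, 30 between responders and controls and 9 between stable tumours and controls. In the same order, 11.6%, 0.00%, 21.6%, 46.3% and 50.5% of all genes tested were called in either direction. Without responders 1, 4 and 7, a setting chosen after seeing the data, the first of these comparisons gave 38 and the second 0. Of all genes tested, 31.3% and 2.49% were called there. With length and GC trends removed, calls were 40 between responders and stable tumours, 4 between stable tumours and non-responders, 12 between stable tumours and controls and 17 for the slope. Under that setting the log2 fold change of Rpl38 against non-responders was 0.033, and that of Rplp1 was 0.044 against stable tumours and 0.23 against controls, all reversed in sign. Stable tumours against non-responders gave 3 with DESeq2, upper-quartile scaling and either RPKM pseudocount, 2 with RLE factors, no filter or the stricter filter, and 0 with all genes of the table. Stable tumours against controls gave 8 with DESeq2, and 10 and 11 with the RPKM pseudocounts of 1 and 0.1. A fit of these 2 groups gave 29, where 57.1% of all genes tested were called in either direction. Non-responders against controls gave 1 (higher) with all genes of the table, the pseudogene Rps4l, which was not tested in the main fit. The slope gave 11 on log2 of the share, 68 without responders 1, 4 and 7 (22.8% of all genes tested) and 0 within responders (1.61%). As a share of all counts, the family held 1.56% in responders, 2.79% in stable tumours and 3.36% in controls. Leaving out each tumour in turn gave 68 to 76, 44 to 76, 0 to 3, 68 to 74, 3 to 12 and 0 to 0 calls for responders against non-responders, responders against stable tumours, stable tumours against non-responders, responders against controls, stable tumours against controls and non-responders against controls, and 0 (without responder 5) to 65 for the slope. The share ranged over 2.14% to 2.41% in responders, 3.15% to 3.36% in stable tumours, 3.49% to 3.90% in non-responders and 3.73% to 3.95% in controls, and the subunit ratio over 1.51 to 1.53, 1.53 to 1.53, 1.59 to 1.61 and 1.69 to 1.70. Of values of single genes under other settings, 1033 kept direction and side of the threshold, 111 lost the call, 18 gained it and 3 reversed; leaving out tumours, the counts were 2225, 94, 6 and 0.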
